A study of Mus musculus with 6 samples.

Results

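The genes described here are 6 Kruppel-like factors (KLFs), Klf2, Klf3, Klf6, Klf7, Klf10 and Klf13, of 37315 genes in the abundance table. They were chosen by name, with their abundance and allelic values in these same 6 libraries already known, so their own differences are given as values with no test. Klf6 had the highest level of the 6 in 5 of the 6 libraries, and Klf2 in the other. The study profiled RNA of immortalised mouse B cells to learn how unequal use of the 2 parental alleles is set. There were 3 cell lines, Abl.2 (female), Abl.3 (male) and Abl.4 (female), all from first-generation (F1) crosses of the strains 129S1/SvImJ and CAST/EiJ. All 3 lines were controls, kept in medium with 1% DMSO, the solvent, and collected on day 2 as live cells from a Histopaque gradient. Each line is a single clone with 2 library preparation replicates, so the errors below measure library preparation and not independent cultures, and a difference between lines is one between 3 clones. Sex and line cannot be told apart for Abl.3.

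KLFs are transcription factors that bind GC-rich and CACCC-type DNA through a block of zinc fingers near the carboxyl end, which they share with the SP factors. The parts outside the fingers differ: some members recruit activating acetyltransferases, while others recruit the CtBP or Sin3 and histone deacetylase corepressors. In lymphocytes KLF2 is known for keeping cells quiescent and for the genes of their migration, KLF3 is a CtBP-dependent repressor that acts in B cell subset formation, and KLF6 and KLF10 are fast-responding genes, KLF10 to TGF-beta.

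The stretch before the gene start is shown for Klf6 and Klf3, whose levels differed most between lines, and for Klf2, the gene second to Klf6 in most libraries. Sequences are from RefSeq, build GRCm38.p6, 5′ to 3′ on the gene's strand. Each begins 250 bases before the RefSeq start and ends before the first base of the gene in the authors' tables. Capitals mark the motifs CACCC and CCGCCC on either strand. They lie at chr13:5861239-5861481 (plus strand) for Klf6, chr5:64803271-64803387 (plus strand) for Klf3 and chr8:72318812-72319032 (plus strand) for Klf2.
Klf6: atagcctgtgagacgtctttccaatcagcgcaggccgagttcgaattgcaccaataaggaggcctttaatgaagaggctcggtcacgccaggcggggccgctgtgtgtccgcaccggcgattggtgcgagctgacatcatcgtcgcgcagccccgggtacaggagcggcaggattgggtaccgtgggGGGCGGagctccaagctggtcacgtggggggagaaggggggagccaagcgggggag
Klf3: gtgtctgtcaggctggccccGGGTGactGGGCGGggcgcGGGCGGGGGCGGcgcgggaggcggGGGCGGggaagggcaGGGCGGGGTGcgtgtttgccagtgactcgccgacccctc
Klf2: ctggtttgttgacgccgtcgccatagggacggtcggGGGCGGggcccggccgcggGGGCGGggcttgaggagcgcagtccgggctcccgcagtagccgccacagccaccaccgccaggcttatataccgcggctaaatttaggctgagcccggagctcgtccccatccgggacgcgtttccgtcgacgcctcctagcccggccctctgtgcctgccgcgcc
Of the 6 genes, 5 had an entry in the RefSeq promoter table; Klf10 had none. Over the full 250 bases, Klf3 held 5 CACCC and 6 CCGCCC matches, with 1 overlap between the motifs, of which 2 and 5 lie in the printed stretch. Klf6 held no CACCC and 1 CCGCCC, Klf2 held 1 and 2, Klf7 held 3 and 1, and Klf13 held 1 and 3 with 1 overlap. Among 32851 promoters of that length, 52.0% held a CACCC and 32.7% a CCGCCC. The counts of CG dinucleotides were 21 for Klf6, 23 for Klf3, 29 for Klf2, 13 for Klf7 and 24 for Klf13, against a median of 6. After the Klf2 sequence was seen, the MEF2 consensus was also searched. Its match in Klf2 reads CTAAATTTAG and begins 118 bases before the RefSeq start, and 2.92% of promoters hold such a match. These matches describe letters and are not evidence of binding.

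Allelic counts per library ranged from 18362319 to 26881211, while abundance is in TPM (a transcript level corrected for the length of each gene and the size of the library), which keeps no depth. The B cell label was checked first. All 10 B-lineage markers reached a mean of 1 TPM in every line, with summed levels of 12287 to 13566 TPM over the libraries. The 5 T cell markers summed to at most 0.07 TPM and the 5 erythroid markers to at most 1.68 TPM. Of 5 myeloid markers, Cd14 was at 0 and Lyz2 alone made up most of a sum of 75.0 to 193 TPM. Itgam, a myeloid integrin, stood at 6.89 and 6.74 TPM in Abl.4 and at 0.97 TPM or less elsewhere. The Y-linked genes were at 0 in Abl.2 and Abl.4 and present in Abl.3, as labelled.

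Klf6, a zinc finger activator induced by growth signals and stress, was highest in Abl.2 and lowest in Abl.3, an order that none of the other 5 genes had. It lies on chr13:5861482-5870394. Its level was 259 and 271 TPM in the libraries of Abl.2, 42.4 and 45.8 TPM in Abl.3, and 199 and 193 TPM in Abl.4. Abl.3 was low in both libraries, and no 2 lines overlapped. The means of Abl.2, Abl.3 and Abl.4 were 265 ± 8.13, 44.1 ± 2.38 and 196 ± 4.32 TPM (SD, n = 2), ratios of 6.01 for Abl.2 over Abl.3, 4.44 for Abl.4 over Abl.3 and 1.35 for Abl.2 over Abl.4. In a bulk library, fewer expressing cells and less RNA per cell cannot be told apart. Markers of the B lineage moved with these lines: 7 of 10 were higher in Abl.2 than in Abl.3 by limma with Benjamini-Hochberg adjustment and none lower (25.9% of tested genes were higher), and 6 were lower in Abl.3 than in Abl.4 with 2 higher (26.8% were lower). With summed allelic counts, 4 were higher and 2 lower in Abl.2 than in Abl.3, and 4 were lower in Abl.3 than in Abl.4, Pax5, Rag1 and Cd93 being among those lower in Abl.3 in both pairs. Pax5, the factor of B cell commitment, had 246 and 207 TPM in Abl.2, 56.2 and 64.0 in Abl.3, and 156 and 165 in Abl.4, the same order as Klf6. Rag1, the recombinase, had that order too, while Cd93, a marker of early B cells, was lowest in Abl.3 and highest in Abl.4. Lyz2 stood at 158 and 193 TPM in Abl.2 and at 70.8 to 96.5 TPM in the other lines. The part of these markers in the Klf6 levels was not tested.

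The weight of Klf6 among KLF transcripts changed with the line. It made up 70.4% and 72.8% of the summed TPM of all KLF genes in Abl.2, 27.4% and 29.7% in Abl.3, and 48.2% in both Abl.4 libraries. The summed level of all KLF genes was 368 and 372 TPM in Abl.2, 155 and 154 TPM in Abl.3, and 413 and 400 TPM in Abl.4. Abl.4 thus had the highest sum with less Klf6 than Abl.2. Within the 11003 genes at a mean of 1 TPM or more, Klf6 lay above 93.3% and 93.7% of genes in Abl.2, 65.0% and 66.9% in Abl.3, and 90.7% in both libraries of Abl.4. Its log2(TPM + 1) difference was 2.56 for Abl.2 minus Abl.3, a size that 2.11% of tested genes reached. For Abl.3 minus Abl.4 the value was -2.13, reached in size by 2.74% of genes. For Abl.2 minus Abl.4 it was 0.43, reached by 33.1%.

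**Figure D1:**
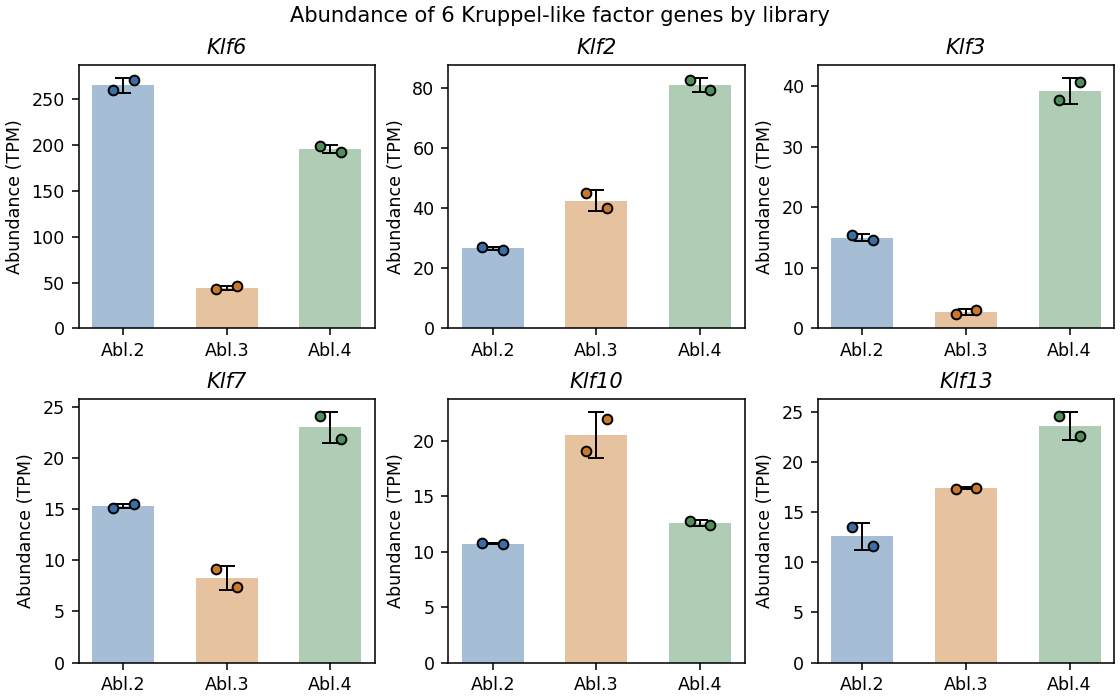
Abundance in TPM (vertical axes, each starting at 0) of the 6 KLF genes in 3 lines; points are the 2 libraries, bars the mean and error bars the SD. Klf6 and Klf3 were lowest in Abl.3, Klf10 was highest there, and Klf2, Klf3, Klf7 and Klf13 were highest in Abl.4.

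Klf3 and Klf7 also had their lowest level in Abl.3, but unlike Klf6 their highest in Abl.4. Klf3 (chr5:64803388-64832901) had 15.4 and 14.6 TPM in Abl.2, 2.37 and 3.06 TPM in Abl.3, and 37.7 and 40.8 TPM in Abl.4. All lines stood apart, and Abl.4 was 14.5 times Abl.3 and 2.62 times Abl.2, while Abl.2 was 5.52 times Abl.3. As log2(TPM + 1), the fall from Abl.4 to Abl.3 was the widest step of any of the 6 genes, with Abl.3 minus Abl.4 at -3.44. Klf7, an activator best known from developing neurons and also made in blood cells (chr1:64029447-64122282, minus strand), had 15.2 and 15.5 TPM in Abl.2, 9.11 and 7.43 TPM in Abl.3, and 24.1 and 21.9 TPM in Abl.4. Its lines were also separate, but closer, at 2.78 for Abl.4 over Abl.3 and 1.85 for Abl.2 over Abl.3. Klf3 overlaps Gm20033 and C230096K16Rik, and Klf7 overlaps Gm26649, Mir6899 and Gm13748. The use of strand in counting is not given in the sources used here, so reads of these pairs may be shared.

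Klf2 stood lowest in Abl.2, where Klf6 was highest. Klf2 (chr8:72319033-72321656) had 27.0 and 26.2 TPM in Abl.2, 44.9 and 40.1 TPM in Abl.3, and 82.7 and 79.3 TPM in Abl.4. The ratio of Abl.4 to Abl.2 was 3.05, that of Abl.4 to Abl.3 was 1.90 and that of Abl.3 to Abl.2 was 1.60. In Abl.3 the levels of Klf2 and Klf6 crossed: Klf2 was above Klf6 in replicate 1 and below it in replicate 2, so these 2 genes did not differ there beyond their spread. In Abl.2 and Abl.4 Klf6 was above Klf2 in both libraries.

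Klf10, the TGF-beta-inducible early gene, was the only one of the 6 with its highest level in Abl.3. Klf10 (chr15:38291463-38300706, minus strand) had 10.8 and 10.7 TPM in Abl.2, 19.1 and 22.0 TPM in Abl.3, and 12.8 and 12.4 TPM in Abl.4. Abl.3 was 1.91 times Abl.2 and 1.63 times Abl.4, while Abl.4 was 1.17 times Abl.2. That last log2(TPM + 1) difference, -0.21 for Abl.2 minus Abl.4, was -0.11 under quantile normalisation and -0.83 when the allelic counts of both alleles were summed and used in place of TPM. Klf13, a factor that drives the chemokine gene Ccl5 in T cells and binds Sin3a (chr7:63886351-63938915, minus strand), was lowest in Abl.2 and highest in Abl.4. It had 13.5 and 11.6 TPM in Abl.2, 17.3 and 17.4 TPM in Abl.3, and 24.6 and 22.6 TPM in Abl.4. Its lines did not overlap, but the Abl.3 minus Abl.4 difference of -0.42 shrank to -0.18 under quantile normalisation. Klf13 overlaps Gm27252 and E030018B13Rik.

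For all 6 genes the libraries of any 2 lines were separate, as they were for 73.4% of tested genes when Abl.2 was set beside Abl.3, 67.3% when it was set beside Abl.4, and 69.9% when Abl.3 was set beside Abl.4. The count is near what most genes showed and rests on values that chose the genes. The order by level in TPM was Klf6, Klf2, Klf3, Klf13, Klf7, Klf10 in both libraries of Abl.4, and in Abl.2 Klf3 and Klf7 exchanged places between the libraries. In Abl.3, Klf10 and Klf13 stood above Klf7, and Klf3 was last. No direction among the 6 genes changed under quantile normalisation or with summed allelic counts, which were available for every one except Klf3.

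The allele table counts reads at SNP positions by parent, and the maternal share is the maternal count over both. Klf6, with the deepest allelic counts of Abl.2 among the 6, was close to balance but below 0.5 in each library. Its share was 0.435 (95% Wilson interval 0.412 to 0.457) and 0.421 (0.401 to 0.441) in Abl.2, on 1836 and 2359 counts. In Abl.3 it was 0.407 (0.355 to 0.461) and 0.428 (0.371 to 0.486), on 322 and 283 counts. In Abl.4 it was 0.493 (0.464 to 0.521) and 0.460 (0.433 to 0.487), on 1179 and 1278 counts. Intervals here cover counting error only, since the reads carry no molecular identifiers. The authors' deposited table gives 0.43 with limits of 0.36 and 0.49 in Abl.2, 0.42 with 0.24 and 0.6 in Abl.3, and 0.48 with 0.37 and 0.58 in Abl.4, so by their limits the Abl.2 value alone lies apart from 0.5. Median shares over tested genes on chromosome 13 were 0.511, 0.508 and 0.507 in Abl.2, Abl.3 and Abl.4. Multiplying TPM by the share gives a maternal level of 113 ± 0.911 TPM in Abl.2, 18.4 ± 1.64 in Abl.3 and 93.3 ± 6.59 in Abl.4, and a paternal level of 152 ± 7.22, 25.7 ± 0.742 and 102 ± 2.27 TPM. Both alleles of Klf6 were low in Abl.3.

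The maternal share of Klf3 lay on opposite sides of 0.5 in Abl.2 and Abl.4. The maternal share was 0.688 (0.607 to 0.760) and 0.669 (0.593 to 0.737) in Abl.2, on 138 and 160 counts, and 0.336 (0.287 to 0.389) and 0.353 (0.300 to 0.409) in Abl.4, on 327 and 295 counts. Maternal reads led in Abl.2 and paternal reads in Abl.4, with no overlap of these intervals, which cover counting error only. Abl.3 replicate 1 had 12 counts and is given no share, and replicate 2 had 0.56 (0.371 to 0.733) on 25 counts. The maternal level was 10.2 ± 0.626 TPM in Abl.2 and 13.5 ± 1.19 TPM in Abl.4, while the paternal level was 4.82 ± 0.0107 and 25.7 ± 0.961 TPM. Most of the higher Klf3 of Abl.4 over Abl.2 was therefore on paternal reads. In the authors' deposited table, the limits for Klf3 include 0.5 in both lines and overlap each other, at 0.44 to 0.87 in Abl.2 and 0.16 to 0.55 in Abl.4.

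**Figure D2:**
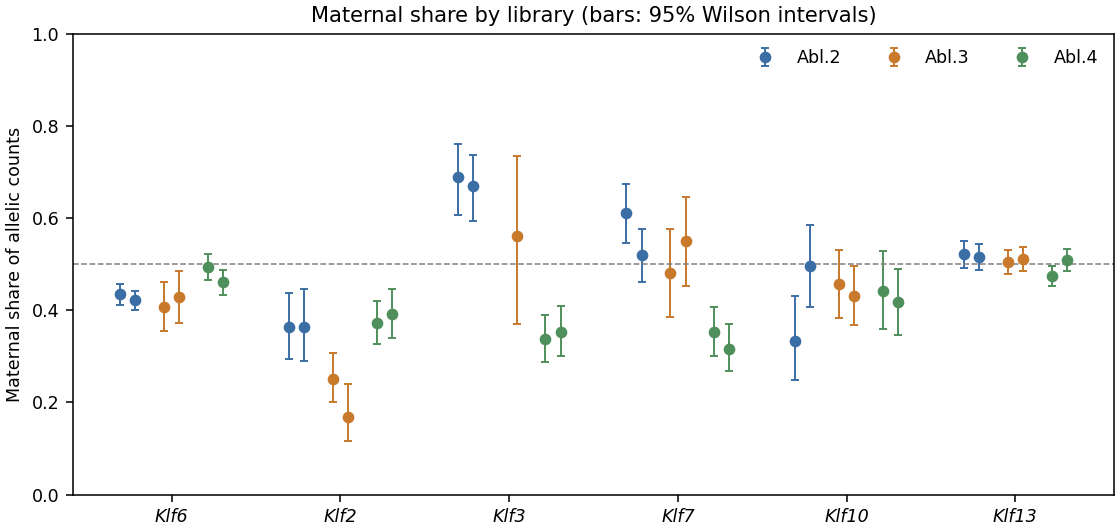
Maternal share of allelic counts (vertical axis, 0 to 1) for the 6 KLF genes; each point is 1 library, coloured by line, with its 95% Wilson interval, and the dashed line marks 0.5. Klf3 and Klf7 lie above 0.5 in Abl.2 and below it in Abl.4, Klf2 lies below 0.5 throughout, and Klf13 stays near 0.5.

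For Klf7, 1 of the 2 Abl.2 intervals includes 0.5. The share was 0.611 (0.545 to 0.673) and 0.519 (0.461 to 0.576) in Abl.2, 0.480 (0.386 to 0.576) and 0.551 (0.452 to 0.646) in Abl.3, and 0.353 (0.302 to 0.408) and 0.316 (0.268 to 0.370) in Abl.4, on 98 to 316 counts. The Abl.4 libraries stood below the other 4. The maternal level was 8.64 ± 0.869 TPM in Abl.2 and 7.71 ± 1.10 TPM in Abl.4, and the paternal level 6.66 ± 1.09 and 15.3 ± 0.426 TPM. The maternal levels of Klf7 in these 2 lines overlapped within their SDs, and the paternal level was the higher in Abl.4. In the authors' deposited table its limits include 0.5 in both lines, 0.38 to 0.73 in Abl.2 and 0.15 to 0.54 in Abl.4. Both levels of Klf7 were lower in Abl.3, at 4.24 ± 0.200 TPM maternal and 4.03 ± 0.988 TPM paternal.

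Klf2 was paternal-leaning in each library, most so in Abl.3. The share was 0.363 (0.294 to 0.437) and 0.364 (0.289 to 0.445) in Abl.2, 0.25 (0.200 to 0.307) and 0.169 (0.116 to 0.239) in Abl.3, and 0.372 (0.327 to 0.420) and 0.392 (0.340 to 0.446) in Abl.4, on 142 to 414 counts. The Abl.3 libraries were the lowest, and in the authors' deposited table its limits, 0.06 to 0.43, exclude 0.5 for Klf2 in that line. The limits there include 0.5 in Abl.2 (0.16 to 0.6) and in Abl.4 (0.21 to 0.57). The maternal level was 9.65 ± 0.201 TPM in Abl.2, 9.005 ± 3.15 in Abl.3 and 30.9 ± 0.227 in Abl.4, and the paternal level 16.9 ± 0.407, 33.5 ± 0.254 and 50.1 ± 2.63 TPM. The higher Klf2 of Abl.3 over Abl.2 was thus on paternal reads, while Abl.4 was higher than Abl.2 on both.

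Klf10 and Klf13 were the genes with the least difference in share between lines. For Klf10 the share was 0.333 (0.248 to 0.431) and 0.496 (0.406 to 0.586) in Abl.2, 0.456 (0.382 to 0.531) and 0.430 (0.367 to 0.495) in Abl.3, and 0.442 (0.359 to 0.528) and 0.417 (0.347 to 0.490) in Abl.4. The 2 Abl.2 libraries of Klf10 span the values of both other lines. Klf13, counted 1159 to 1912 times per library, had shares of 0.521 and 0.515 in Abl.2, 0.504 and 0.511 in Abl.3, and 0.474 and 0.510 in Abl.4. Of these, Abl.4 replicate 1 (0.452 to 0.497) is the one whose interval leaves out 0.5.

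**Figure D3:**
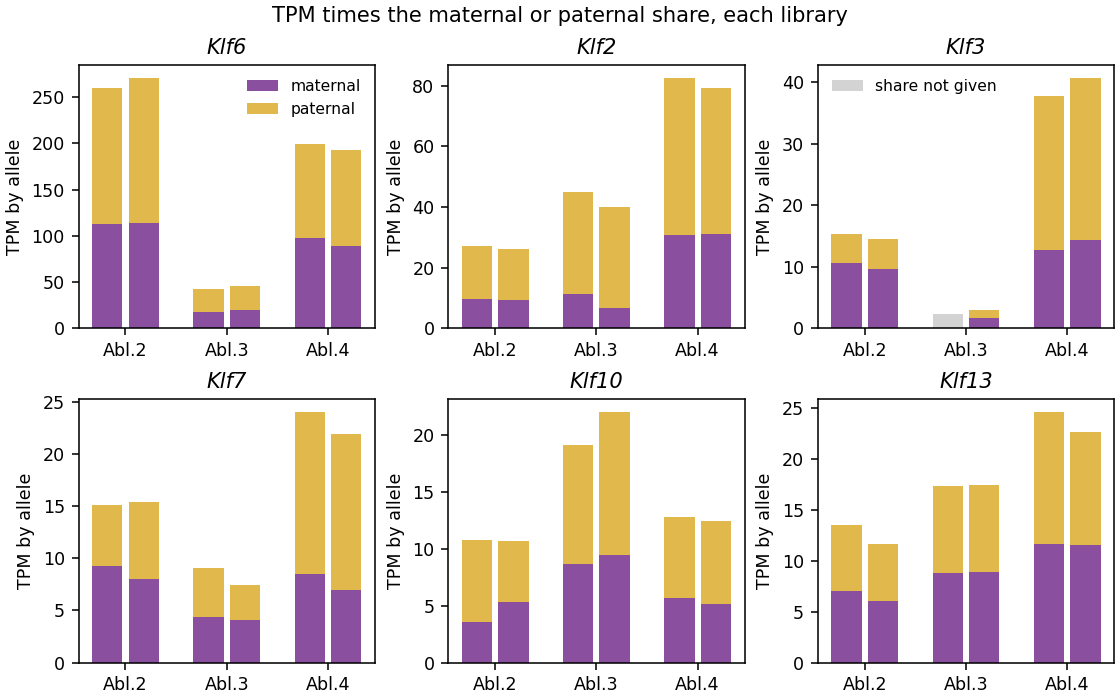
Abundance in TPM of each KLF gene split by allele (TPM times the maternal or paternal share, stacked, 1 bar per library); grey marks the Abl.3 library of Klf3 with no share. In Abl.4, Klf3 and Klf7 carry a taller paternal part than in Abl.2, at 25.7 against 4.82 TPM and 15.3 against 6.66 TPM, while the maternal parts differ less, at 13.5 against 10.2 TPM and 7.71 against 8.64 TPM.

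Genes around the members were compared with them, to set each share beside that of its stretch of chromosome. An allelic difference between lines was tested in 8702 genes with at least 20 counts per library (edgeR quasi-likelihood, Benjamini-Hochberg adjusted p below 0.05). The test called 28.4% of them for Abl.2 against Abl.3, 22.3% for Abl.2 against Abl.4 and 16.5% for Abl.3 against Abl.4. Of 24 neighbours, the nearest 2 on each side of every member, 7, 1 and 3 were called. Some lay far off: Atp10a and Ube3a were 5230 and 4658 kb from Klf13, and Zfp706 was 1294 kb from Klf10. For Abl.2 against Abl.4, the lines between which the shares of Klf3 and Klf7 were farthest apart, none of the 4 neighbours of Klf3 was called by edgeR (adjusted p 0.0595 to 0.726, with 1 at an unadjusted p below 0.05 and 0 by DESeq2). None of the 4 neighbours of Klf7 was called for that pair either (edgeR adjusted p 0.467 to 0.984, with 0 at an unadjusted p below 0.05 and 0 by DESeq2). Among all 13 tested genes within 1 Mb of Klf3, the share in Abl.4 ran from 0.436 to 0.628, median 0.513, above the Klf3 value in that line. In Abl.2 it ran from 0.442 to 0.685, median 0.520, a range that takes in Klf3. Among 7 tested genes within 1 Mb of Klf7, the share in Abl.4 ran from 0.421 to 0.636, again above the value of the gene itself. The neighbours of Klf3 did differ for Abl.3: Pgm2, a sugar phosphate mutase, had 0.572 ± 0.0143 in Abl.2, 0.408 ± 0.00678 in Abl.3 and 0.628 ± 0.0215 in Abl.4 (edgeR adjusted p 5.28e-05 for Abl.2 against Abl.3 and 1.35e-05 for Abl.3 against Abl.4). Tbc1d1, a regulator of glucose transport, was called for the same pairs (edgeR adjusted p 0.0102 and 0.0074) and Wdr19, a cilium gene, for Abl.2 against Abl.3 (edgeR adjusted p 0.0485). DESeq2 called 2 of the 4 neighbours of Klf3 in each of those pairs. The median share over 599 tested genes on chromosome 5 was also lower in Abl.3, at 0.450 beside 0.490 in Abl.2 and 0.502 in Abl.4, and its part in these calls was not tested.

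**Figure D4:**
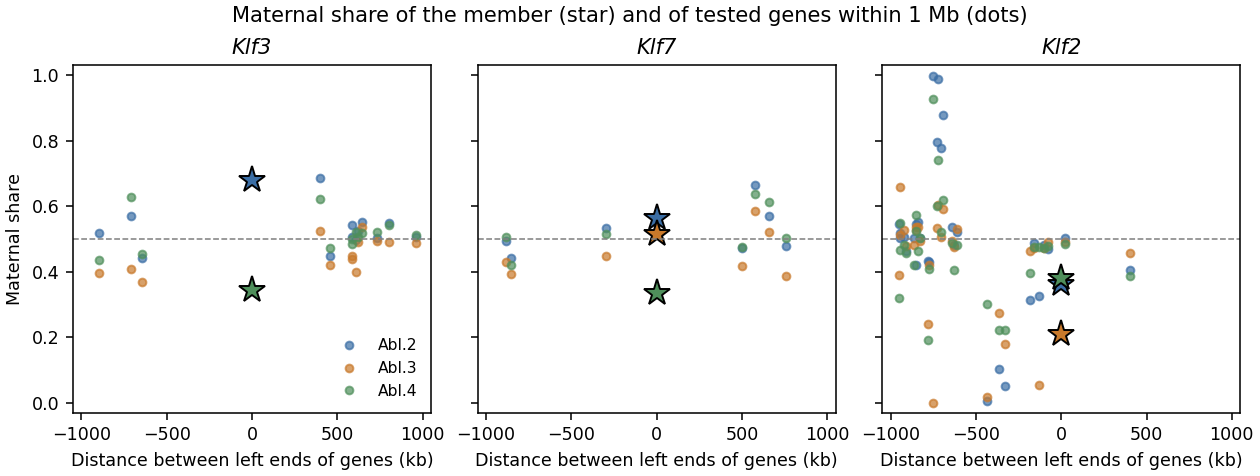
Maternal share (vertical axis) of tested genes within 1 Mb of Klf3, Klf7 and Klf2 (dots, both libraries pooled) and of the member itself (stars, mean of 2 libraries), against the distance between left ends in kb; the dashed line marks 0.5. In Abl.4 the Klf3 and Klf7 stars lie below every dot of that line, and Klf3 in Abl.3 has no star.

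Klf6 has few tested neighbours. The nearest on its sides were Akr1e1 and Akr1c13, aldo-keto reductases 1271 and 1670 kb before it, and Pitrm1 and Pfkp, 687 and 718 kb after it. Akr1e1 had shares of 0.639 ± 0.0282, 0.229 ± 0.0602 and 0.832 ± 0.0484 in Abl.2, Abl.3 and Abl.4 and was called in all 3 pairs (edgeR adjusted p 0.000463, 0.0166 and 4.79e-05). By DESeq2 it was not called for Abl.2 against Abl.4, where no neighbour of Klf6 was. Akr1c13 was called for Abl.2 against Abl.3 (edgeR adjusted p 0.00716), and so was Pfkp, a glycolytic enzyme, with 0.466 ± 0.000716 against 0.513 ± 0.00370 (edgeR adjusted p 0.00396). DESeq2 called 2 of the 4 neighbours of Klf6 for Abl.2 against Abl.3. Pitrm1, a mitochondrial protease, stayed between 0.493 and 0.504 in every library. None of the 4 neighbours of Klf2 was called in any pair (edgeR adjusted p 0.247 to 0.952, with 0 at an unadjusted p below 0.05 and 0 by DESeq2). Klf2 also lies in a region of mixed shares in every line. Among 30 tested genes within 1 Mb, the share ran from 0.00562 to 0.998 in Abl.2, 0 to 0.657 in Abl.3 and 0.193 to 0.928 in Abl.4. Fan1, a DNA repair nuclease beside Klf13, was called for Abl.2 against Abl.3 (edgeR adjusted p 0.0275) and not by DESeq2. Klf10 had no called neighbour (0 by DESeq2, with 0, 0 and 1 at an unadjusted p below 0.05 by edgeR in the 3 pairs).

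The genes with the pattern most like Klf6 were found from log2(TPM + 1) centred on each gene's mean, by the Euclidean distance over 6 libraries. The nearest of 11002 genes were Ank3, which encodes a scaffold of the membrane skeleton (distance 0.207), Coro2a, an actin-binding coronin (0.345), 2900026A02Rik (0.391), Zfp182, a zinc finger gene on X listed at 0 in both Abl.3 libraries (0.416), and Sema6d, a semaphorin (0.417). Coro2a had 113 ± 2.20 TPM in Abl.2, 17.7 ± 1.27 in Abl.3 and 68.7 ± 0.163 in Abl.4, and Ank3 had 7.10 ± 0.516, 0.37 ± 0.0566 and 4.45 ± 0.141 TPM. Among the other 5 members, Klf7 ranked 472 and Klf3 579 in nearness to Klf6, while Klf2 ranked 9578 and Klf10 ranked 10288. With so few libraries, a rank mostly reflects the 3 line means.

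**Figure D5:**
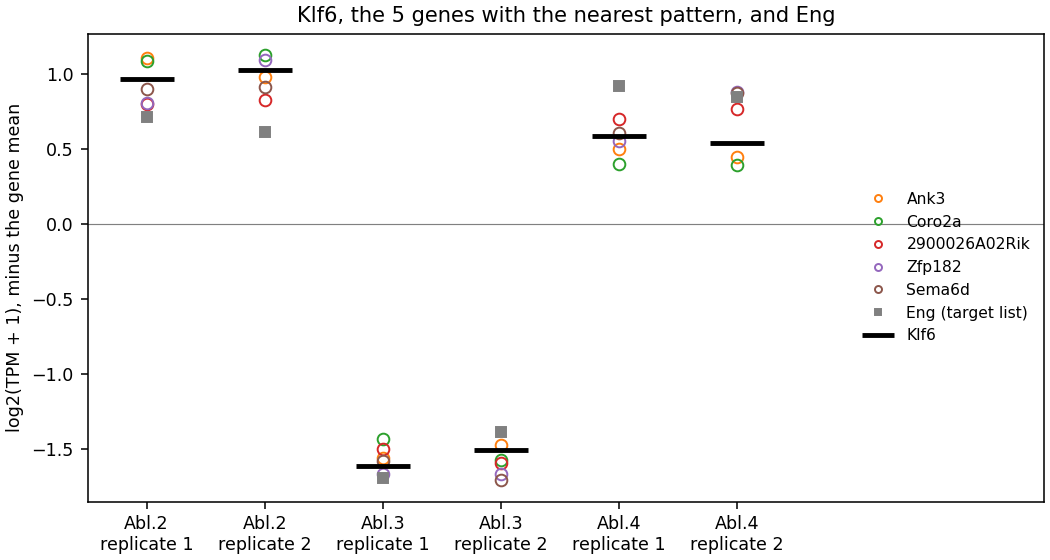
Centred log2(TPM + 1) per library of Klf6 (black bars), the 5 genes nearest to it by distance (open circles) and Eng (grey squares). All of them are lowest in Abl.3, and Eng stands higher in Abl.4 than in Abl.2, opposite to Klf6.

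Among 21 other KLF and SP genes listed, 20 were in the table and 9 reached a mean of 1 TPM: Klf4, Klf8, Klf9, Klf11, Klf16, Sp1, Sp2, Sp3 and Sp4. In limma with Benjamini-Hochberg adjustment, 4 of 9 differed for Abl.2 against Abl.3 (background 39.8% of tested genes), 2 for Abl.2 against Abl.4 (33.5%) and 6 for Abl.3 against Abl.4 (38.1%), all 6 being lower in Abl.3. The median log2(TPM + 1) difference over the 9 genes was 0.46, -0.08 and -0.55 in these pairs, beside 0.10, -0.03 and -0.15 over all tested genes. Quantile normalisation, from which the medians over all tested genes differed by 0.10, -0.06 and -0.18 (TPM minus quantile), left 1 call in each pair. Klf4, a factor that restrains B cell proliferation, had 0.05 and 0.3 TPM in Abl.2, 0.72 and 0.79 TPM in Abl.3 and 4.2 and 4.4 TPM in Abl.4, and it passed the filter through Abl.4. On the log2(TPM + 1) scale Abl.2 minus Abl.4 was -2.18 ± 0.19 (SE) and Abl.3 minus Abl.4 was -1.59 ± 0.19 (limma adjusted p 0.000347 and 0.00135). Klf4 was at low levels in the other lines, so these calls follow in part from the filter and are not support for the list. The other 10 of 12 calls over the 3 pairs were lost in at least 1 alternative. Itgam also stood highest in Abl.4, with values given above, and its part in the Klf4 difference was not tested.

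Klf9, a factor that slows B cell activation, was lower in Abl.3 than in Abl.4, at 6.46 and 6.54 against 12.0 and 10.5 TPM (limma adjusted p 0.0078, and 0.067 with quantile normalisation). Klf8, a CtBP-binding repressor on X, had 0.74 and 0.83 TPM in Abl.3 and 1.91 to 2.20 TPM in the other lines (limma adjusted p 0.0113 against Abl.2 and 0.0139 against Abl.4). Its allelic counts were all paternal in Abl.2 and Abl.4, with 0 maternal of 133 and 124 counts, which allows up to 2.26% and 2.42%. In the male line Abl.3, whose only X is maternal, they were all maternal, on 23 and 19 counts. Xist, the gene of X inactivation, had mean maternal shares of 0.994 in Abl.2 and 0.996 in Abl.4. The part of X inactivation in the Klf8 shares was not tested. None of the 7 other KLF and SP genes with enough coverage was called for an allelic difference in any pair (edgeR; 3, 0 and 0 had an unadjusted p below 0.05, and DESeq2 called 0). Sp9, 1 of the 7, was at 0.02 TPM or less and overlaps Cir1, so its allelic counts may not be its own.

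Among 10 cofactors that KLFs recruit, 9 were tested, and 4, 2 and 3 differed in the 3 pairs by limma, that is 44.4%, 22.2% and 33.3% beside the 39.8%, 33.5% and 38.1% of all tested genes. Hdac2, a histone deacetylase of the Sin3 and CtBP complexes, stood at 173 and 189 TPM in Abl.2, 116 and 117 TPM in Abl.3, and 111 and 129 TPM in Abl.4 (limma adjusted p 0.00306 and 0.00446 for Abl.2 against the others). It lies on chromosome 10, where the median maternal share in Abl.2 was 0.336, against 0.504 in the other lines. Crebbp, the acetyltransferase CBP, was lower in Abl.3, with 24.0 and 24.1 TPM against 34.9 and 35.9 in Abl.2 and 31.9 and 33.4 in Abl.4 (limma adjusted p 0.00353 and 0.00964, and 0.079 and 0.165 from summed allelic counts). Kat2b, the acetyltransferase PCAF, was lower in Abl.2, with 2.69 and 2.82 TPM against 4.95 to 5.66 elsewhere (limma adjusted p 0.00704 and 0.00809, the first being 0.227 from summed allelic counts). Its log2 difference for Abl.2 minus Abl.3 was -0.75 from TPM and -0.35 from summed allelic counts. The 3 cofactor calls for Abl.3 against Abl.4 became 0 without either Abl.3 library and 1 with quantile normalisation. The 4 for Abl.2 against Abl.3 became 2 without Abl.3 replicate 2, and the 2 for Abl.2 against Abl.4 became 1 without Abl.2 replicate 1. Over the 3 pairs, 2 of the 9 cofactor calls were kept in every alternative that could be fitted, both of them Hdac2. Ctbp1, the corepressor bound by KLF3, had between 241 and 328 TPM in every library, far above Klf3 itself.

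Among 14 genes that control KLF levels, namely MEF2 and FOXO factors, the MEK5 and ERK5 kinases, E3 ligase genes and the TGF-beta pathway, 6 differed for Abl.2 against Abl.3, each higher in Abl.2 (background for that direction 25.9%). For Abl.2 against Abl.4, 7 differed, 3 higher and 4 lower (15.0% and 18.4%). For Abl.3 against Abl.4, 8 differed, each lower in Abl.3 (26.8%). With quantile normalisation the calls for Abl.2 against Abl.3 were 6 higher and 1 lower, and those for Abl.3 against Abl.4 were 6, each lower. With summed allelic counts, which covered 10 of the genes, they were 3 higher and 2 lower, and 3 lower, and those for Abl.2 against Abl.4 were 2 higher and 2 lower. Of all 8702 genes tested with these counts, 1920 were higher and 1743 lower for Abl.2 against Abl.3. That all-gene split was 1593 and 1641 for Abl.2 against Abl.4, and 1516 and 1728 for Abl.3 against Abl.4. The 7 calls for Abl.2 against Abl.4 became 4 without Abl.2 replicate 1, and the 8 for Abl.3 against Abl.4 became 5 without Abl.4 replicate 2. The 6 for Abl.2 against Abl.3 became 4 to 8 when 1 library was left out. The median log2(TPM + 1) differences were 0.33, -0.15 and -0.43. Smad3, the TGF-beta signal carrier, had 146 and 138 TPM in Abl.2 but 13.2 and 10.6 in Abl.3 and 16.8 and 16.2 in Abl.4. Abl.2 was higher by 3.47 ± 0.12 and 3.03 ± 0.12 on the log2(TPM + 1) scale (limma adjusted p 7.88e-06 and 1.56e-05). Klf10, a gene induced by TGF-beta, was lowest in that line.

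Mef2c, an activator of Klf2 transcription, was highest in Abl.4, as Klf2 was, but lowest in Abl.3, whereas Klf2 was lowest in Abl.2. Klf3 and Klf7 had the same order of lines as Mef2c. Mef2c had 23.8 and 24.0 TPM in Abl.2, 15.9 and 16.5 TPM in Abl.3, and 45.7 and 50.3 TPM in Abl.4 (limma adjusted p 0.00536 for Abl.2 against Abl.3, 0.000505 for Abl.2 against Abl.4 and 9.6e-05 for Abl.3 against Abl.4). The first of these was 0.518 from summed allelic counts. Foxo1, the main upstream activator of Klf2 in lymphocytes, was instead highest in Abl.2, at 274 and 259 TPM against 207 to 229 TPM (limma adjusted p 0.0323 and 0.012). Foxo3, its relative on chromosome 10, had 25.3 and 21.3 TPM in Abl.2, 6.95 and 7.67 TPM in Abl.3 and 13.5 TPM in both Abl.4 libraries, and differed in all 3 pairs (limma adjusted p 0.000241, 0.00519 and 0.00377). Of the 21 calls in this list, 10 were kept in every alternative that could be fitted, among them Smad3 for Abl.2 against both lines, Mef2c for Abl.4 against both lines and Foxo3 in all 3 pairs, and the Foxo1 calls were not.

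Of 12 genes reported as KLF targets, 9 reached the filter, and 5, 7 and 7 differed in the 3 pairs by limma (39.8%, 33.5% and 38.1% of all tested genes did). The median log2(TPM + 1) differences were -0.07, -0.22 and -0.93, and the calls went in both directions in each pair. Of these 19 calls, 18 were kept in every alternative that could be fitted; Cdkn1a for Abl.2 against Abl.4 was not (limma adjusted p 0.00988, and 0.0702 without Abl.2 replicate 1). Igf1r, with 2 of the 18, reached the filter through Abl.4 alone, so its calls follow from the filter, and it was not among the genes with summed allelic counts. S1pr1, a known KLF2 target in lymphocytes and the receptor for exit into blood and lymph, had 4.43 and 5.32 TPM in Abl.2, 5.96 and 4.69 TPM in Abl.3, and 34.6 and 33.9 TPM in Abl.4, so it was highest where Klf2 was. On the log2(TPM + 1) scale Abl.2 minus Abl.4 was -2.59 ± 0.15 (limma adjusted p 5.72e-05). Ccr7, a chemokine receptor of lymph node homing, was at 0.61 and 0.43 TPM in Abl.2, 13.4 and 13.5 TPM in Abl.3 and 27.3 and 25.9 TPM in Abl.4, the same order of lines as Klf2 (limma adjusted p 1.24e-05, 6.28e-06 and 0.00214). Itgb7, a gut-homing integrin chain, did not pass in any pair, at 1.58 to 2.56 TPM.

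Targets reported for KLF6 did not share 1 order of lines. Eng, the TGF-beta co-receptor endoglin, had 105 and 97.7 TPM in Abl.2, 18.96 and 23.63 TPM in Abl.3 and 121 and 115 TPM in Abl.4. It was lower in Abl.3 than in either line (limma adjusted p 4.16e-05 and 3.49e-05) and ranked 22 of 11002 in nearness to Klf6. Its maternal share was 0.455 and 0.440 in Abl.2 and 0.493 and 0.497 in Abl.4, but in Abl.3 0 of 577 counts were maternal, which allows up to 0.520%. The allelic difference passed for Abl.3 against both lines (edgeR adjusted p 3.93e-08 and 8.45e-08). Klf6, by contrast, kept both alleles in Abl.3. Eng overlaps 4 annotated genes, Fpgs among them, so part of its counts may come from those. Cdkn1a, the cell cycle inhibitor p21, was highest in Abl.3, where Klf6 was lowest, at 332 and 358 TPM against 177 and 161 in Abl.2 and 120 and 92.1 in Abl.4 (limma adjusted p 0.0017 and 0.000255). Atf3, a stress-induced factor, had 223 and 215 TPM in Abl.2, 101 and 94.5 TPM in Abl.3 and 108 and 92.0 TPM in Abl.4, so it was higher in Abl.2 than in both (limma adjusted p 0.000305 and 0.00034). Igf1r, the insulin-like growth factor receptor, was listed at 0 in the 4 libraries of Abl.2 and Abl.3 and had 6.62 and 5.38 TPM in Abl.4. Plau, the urokinase gene, stayed at or below 0.6 TPM. Smad7, the TGF-beta inhibitor that KLF10 represses, was highest in Abl.4, at 20.02 and 20.34 TPM against 7.93 to 12.3 TPM elsewhere (limma adjusted p 0.00614 and 0.00179). Ccl5, a target of KLF13 in T cells, and Lgals3, a gene repressed by KLF3, were at or below 0.39 and 0.31 TPM in every library.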

How the data were processed

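RNA was measured in 6 libraries, 2 per line, made from 10 ng RNA with the SMARTseq v4 kit after DNase treatment, per the labels' protocols. The deposited abundance table holds TPM, obtained by the authors with DESeq2 per the file headers. The deposited allele table holds whole-number counts of maternal and paternal reads at SNP positions, per the file headers. The authors' allelic imbalance table holds a fraction (maternal over all allelic counts, replicates averaged) with confidence limits, per the file headers. STAR 2.5.4a, SAMtools, GATK and DESeq2 are named in the submitters' processing notes; their parameters, the annotation and any strand setting are not given in the sources used here. Coordinates are the authors'; 98.7% of 35412 gene starts matched GENCODE M21 (GRCm38).

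The 6 members and all gene lists were chosen with earlier results of these data known. Abundance was tested with limma 3.58.1 in R 4.3.3 on log2(TPM + 1) over 11003 genes at a mean of 1 TPM or more, which understates changes of low genes. Allelic counts were tested with edgeR 4.0.16 (1 intercept per library, 1 allele effect per line) over 8702 of 19402 genes with at least 20 counts in each library, and with DESeq2 1.42.0 as an alternative. Tests were two-sided, with Benjamini-Hochberg adjustment over all genes tested and a threshold of 0.05. Both tests were tried on simulated data. Named genes were the members, other KLF and SP genes at 1 TPM or more, up to 3 genes of smallest p per list with those tied directly to a member, the 5 genes nearest to Klf6, and neighbours that passed or belong to Klf6. Alternatives changed the pseudocount, filter, normalisation, coverage minimum and test, added the replicate block, or left out a library. Sharing of reads between overlapping genes, and of 1 read between several SNPs, was not tested. The values of 1 gene in the list of KLF targets are not reported here, though the counts over that list include it.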

Additional observations from a re-analysis of the deposited data

Results flagged for a closer look

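The maternal share of Klf3 lay above 0.5 in both Abl.2 libraries and below it in both Abl.4 libraries, a difference of 0.334. No test is given for it, because these values chose the gene and Abl.3 replicate 1 had 12 counts, below the minimum of 20. For Klf7 the libraries of the same 2 lines also lay on opposite sides of 0.5, a difference of 0.230, likewise given with no test. The authors' limits for both genes include 0.5 in both lines.

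Among genes tested for an allelic difference, Hdac1, a histone deacetylase bound by Sin3 complexes, differed by 0.561 in maternal share for Abl.2 minus Abl.3 and by 0.548 for Abl.2 minus Abl.4 (edgeR adjusted p 4.25e-13 and 6.74e-13). It lies on chromosome 4, where the median share over 554 tested genes was 0.998 for Abl.2 but 0.507 and 0.498 for the other lines. The share of Smad3 differed by 0.491 for Abl.2 minus Abl.3 and by 0.472 for Abl.2 minus Abl.4 (edgeR adjusted p 2.2e-11 and 3.46e-11), with 0.948 and 0.946 in the Abl.2 libraries and 0.430 to 0.482 in the other 4.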

How the results depend on the processing

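Among the 9 other KLF and SP genes, the calls of 4, 2 and 6 (Abl.2 against Abl.3, Abl.2 against Abl.4, Abl.3 against Abl.4) became 1, 1 and 1 with quantile normalisation and 0, 0 and 1 with summed allelic counts (7 genes tested, Sp9 among them but not Klf4, Klf8 and Klf11, so part of the fall is genes not tested), and 1 for Abl.2 against Abl.4 with no filter on TPM. Leaving out 1 library gave 1 to 3, 1 to 2 and 2 to 5 calls, and over all genes 2529 to 4565, 2040 to 3269 and 2336 to 3659 in place of 4382, 3682 and 4194. Quantile normalisation changed the split over all genes for Abl.2 against Abl.3 from 2847 higher and 1535 lower to 2072 and 1957. For Abl.2 against Abl.4 the split went from 1652 and 2030 to 2018 and 1804. For Abl.3 against Abl.4 it went from 1248 and 2946 to 1906 and 1757. The larger side thus turned for Abl.2 against Abl.4 and for Abl.3 against Abl.4. The 0 allelic calls of those KLF and SP genes became 1 for Abl.2 against Abl.3 and for Abl.3 against Abl.4 with a coverage minimum of 10 or of 1, and 0 to 1 when a library was left out. The allelic difference of Ccr7 for Abl.2 minus Abl.3 ran from -2.31 to 2.08 on the log2 scale when 1 library was left out, the sign turning without Abl.2 replicate 2. The cause of these changes was not tested. A replicate block made the abundance calls 5213, 4608 and 5184 over all genes and 6, 3 and 7 in the KLF and SP list, and took the cofactor calls for Abl.2 against Abl.4 from 2 to 5; same-numbered libraries correlated at 0.104, 0.187 and 0.161 in their deviations, but the lines share 2 numbers and the labels do not say what a number marks, so the block is given here as an alternative. Allelic counts limit the share of Klf3 in Abl.3, and TPM keep no depth, so counting error of the abundances is unknown.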

Other observations

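Sp9, an SP factor of the nervous system, was listed at 0.02 TPM or less in every library, yet had 58 to 76 allelic counts per library, and it overlaps Cir1. Klf16 lies on chromosome 10 and had a maternal share of 0.407 and 0.330 in Abl.2 and of 0.495 to 0.542 in the other lines, beside the chromosome medians of 0.336 in Abl.2 and 0.504 in the others (edgeR adjusted p 0.124 and 0.186 for Abl.2 against Abl.3 and Abl.4).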
